A study of Mus musculus with 8 samples.

Results

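The genes described here encode 9 surface proteins by which mouse blood stem cells and their embryonic precursors are recognised: Procr, Kit, Cd34, Ptprc, Spn, Itga2b, Thy1, Cd27 and Gpr56. They were taken by symbol from a deposited table of 33504 genes, all 9 were found, and all 9 passed the filter on low values (at least 1 FPKM in at least 2 libraries). RNA was sequenced from 3 sorted populations on a C57BL/6J background. The pre-HSC group (precursors of hematopoietic stem cells, 3 libraries) came from embryos at day 11.5. The ex-HSC group (3 libraries) carries the stage label in vitro, and was read as cells recovered from a 4-day reaggregate culture with OP9 stromal cells, SCF, IL-3 and Flt3L (100 ng/ml each). The FL-HSC group (fetal liver hematopoietic stem cells, 2 libraries) came from embryos at day 14.5. Embryos had wild-type mothers and either wild-type or Ly6a-GFP transgenic fathers. Which libraries carried the transgene, which surface proteins the sort gates used, and whether replicates were separate litters or cultures are not given. A gate on one of these proteins could set the level of its own gene, and this cannot be told apart from regulation. In bulk RNA, fewer expressing cells and less RNA per cell cannot be told apart either.

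Blood stem cells arise in the embryo from the endothelium of the large arteries. Their precursors first carry endothelial surface proteins, and then gain the integrin chain CD41, the sialomucin CD43 and the leukocyte phosphatase CD45 in the course of becoming blood cells. The receptor KIT and the protein C receptor EPCR (gene Procr) are used to sort stem cells at several ages. Each member has its own work at the membrane, as receptor, adhesion molecule or phosphatase, so they share a use and a place rather than a pathway.

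Values are FPKM (fragments scaled to transcript length and to the library's total), which allow levels of different genes to be compared per length. Between 11682 and 12757 genes per library reached 1 FPKM. The ex-HSC replicate 2 library stood apart. It had 24992 genes above 0, against 15622 to 18374 in the other 7 libraries, and its median-of-ratios scaling factor was 0.735, against 0.984 to 1.16. In each of the 9 members it had the lowest FPKM of its group. Results are therefore given without that library wherever this changed a call or a direction.

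In pre-HSC the members stood at distinct levels. Cd34 was highest at 279 ± 28.8 FPKM (SD, n = 3), followed by Procr at 121 ± 16.8, Gpr56 at 63.8 ± 12.3 and Kit at 35.5 ± 3.18. The libraries of these neighbours in the order did not overlap. Ptprc (10.3 ± 2.69), Spn (9.86 ± 1.41), Itga2b (9.08 ± 1.78) and Cd27 (7.52 ± 3.26) formed a low set whose ranges overlapped from one neighbour to the next. Thy1 was lowest at 1.70 ± 0.409 FPKM.

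In ex-HSC, Cd34 remained first at 253 ± 63.6 FPKM (n = 3), and its libraries did not overlap those of Kit, the next in order at 87.7 ± 35.6. From Kit down to Thy1 each neighbour overlapped the next, in the order Kit, Gpr56, Ptprc, Cd27, Spn, Itga2b, Procr and Thy1. Procr, second in pre-HSC, was eighth here.

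The first place in fetal liver HSC passed to Gpr56 at 331 ± 7.37 FPKM (n = 2), clear of Cd34 at 120.4 ± 6.37. Cd34 and Kit (117 ± 18.3) overlapped, as did Cd27 (57.8 ± 11.7) with Procr (54.0 ± 15.4), and Itga2b (23.3 ± 9.60) with Ptprc (21.4 ± 10.6). Spn stood between Kit and Cd27 without overlap at 76.7 ± 6.38. Thy1 was again last at 3.21 ± 0.878.

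**Figure D1:**
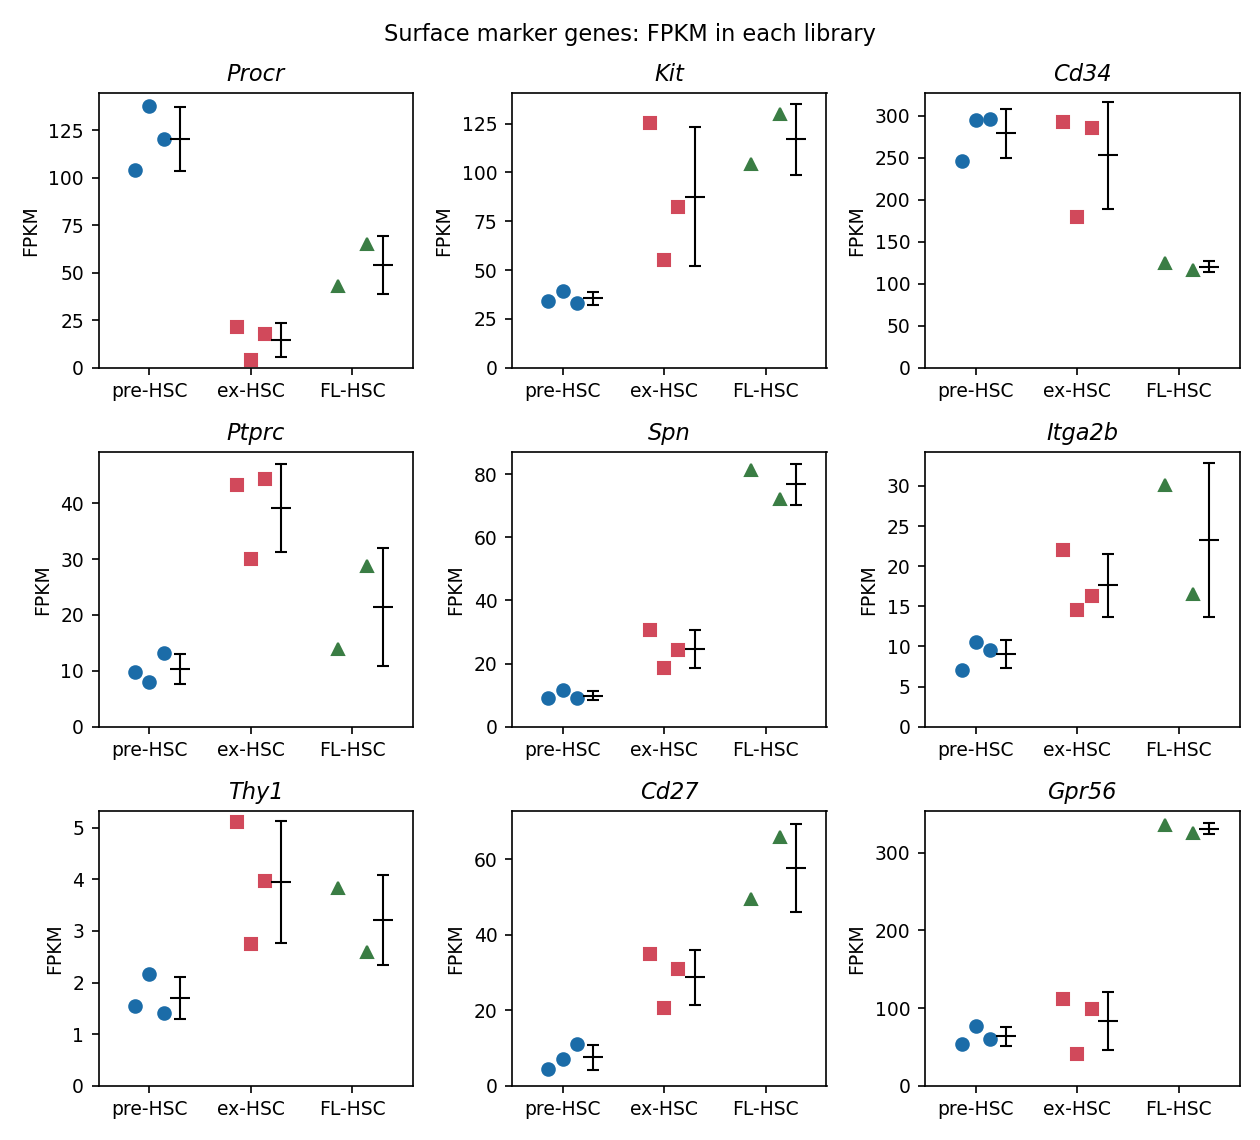
FPKM of the 9 genes in each library, 1 panel per gene with its own vertical axis from 0. Circles are the 3 pre-HSC libraries, squares the 3 ex-HSC libraries and triangles the 2 FL-HSC libraries, each group ordered by replicate number, and the black bar is the mean ± SD; the Gpr56 triangles at 326 and 336 lie above every other Gpr56 value.

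**Figure D2:**
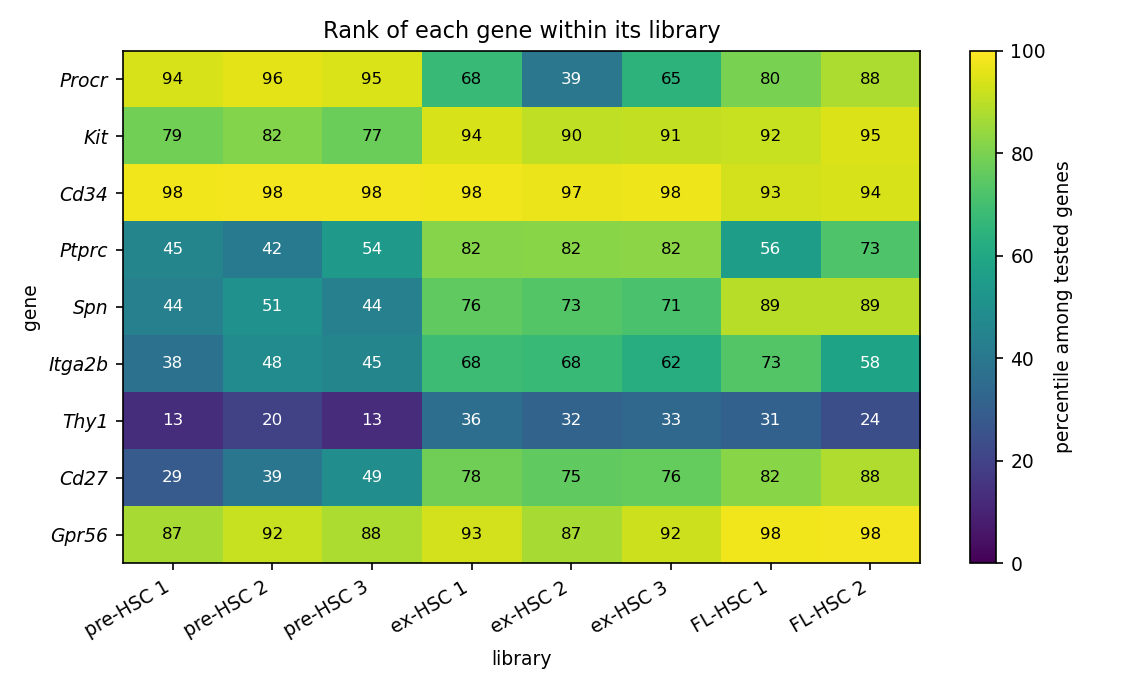
Percentile of each gene (rows) among the 13720 tested genes of each library (columns), where 100 is the highest FPKM. Cd34 lies between 93.2 and 98.2 in every library, and Thy1 between 12.8 and 36.0.

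Against pre-HSC, most of the 9 genes were higher in cultured ex-HSC. Kit, Ptprc, Spn, Itga2b, Thy1 and Cd27 rose, Procr fell, and Cd34 and Gpr56 did not pass. Calls were made where limma gave an adjusted p under 0.05, with Benjamini-Hochberg adjustment over all 13720 tested genes. Of all tested genes 44.1% were called, 15.7% up and 28.4% down, against 6 and 1 of the 9 members. The median log2 fold change of the members was 0.88, and that of all tested genes was -0.16. In 7 of 9 members the libraries of both groups did not overlap, as in 55.4% of tested genes. Without ex-HSC replicate 2, 7 members rose and 1 fell, Gpr56 being the addition.

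In fetal liver HSC against pre-HSC again 6 members rose and 1 fell. Kit, Ptprc, Spn, Itga2b, Cd27 and Gpr56 rose, Cd34 fell, and Procr and Thy1 did not pass. In this comparison 43.3% of tested genes were called, 22.9% up and 20.4% down. The median log2 fold change was 1.22 for the members and 0.13 for all tested genes. The libraries did not overlap in 9 of 9 members, as in 68.2% of tested genes. Both comparisons share the pre-HSC libraries. Without ex-HSC replicate 2, which enters this comparison through the shared estimate of spread, 7 members rose and 2 fell.

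Between fetal liver HSC and ex-HSC, Procr, Spn, Cd27 and Gpr56 were higher in fetal liver HSC and Cd34 was lower, and Kit, Ptprc, Itga2b and Thy1 did not pass. Of tested genes 33.3% were called, 24.1% higher and 9.15% lower in fetal liver HSC. The median log2 fold change was 0.48 for the members and 0.27 for all tested genes. The libraries did not overlap in 6 of 9 members, as in 56.4% of tested genes. Without ex-HSC replicate 2, 3 members were higher and 2 lower. This contrast is also the test of whether the change against pre-HSC differed between the later populations.

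The scaling of the libraries moved the level of all genes. With median-of-ratios scaling the median of all tested genes was -0.02, -0.02 and -0.03 in the 3 comparisons. Of the calls in ex-HSC against pre-HSC, 35.6% were upward as deposited and 48.2% after that scaling. The shares between fetal liver HSC and ex-HSC were 72.5% and 49.7%, and quantile normalization gave 55.6% and 56.0% for these comparisons. In fetal liver HSC against pre-HSC 52.9% of the calls were upward as deposited, 45.2% after median-of-ratios scaling and 57.7% after quantile normalization. Less the median of all tested genes, Procr in ex-HSC came to -3.05, Cd34 in ex-HSC to -0.01 and Kit between fetal liver HSC and ex-HSC to 0.22, and no member's sign turned by this subtraction in any of the 3 comparisons.

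**Figure D3:**
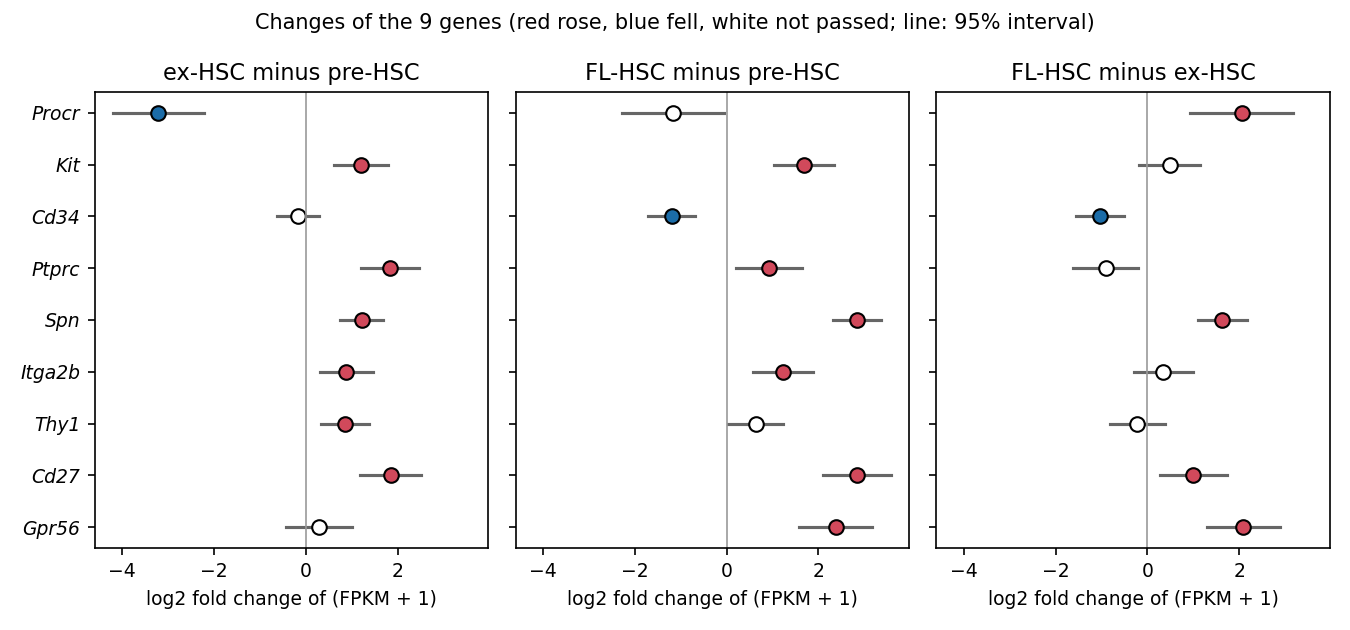
Log2 fold change of (FPKM + 1) for each gene in the 3 comparisons, with its 95% interval as a line. Red points rose, blue points fell and white points did not pass at a limma adjusted p under 0.05; Procr in ex-HSC, at -3.21, is the largest change in either direction.

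Kit is the receptor for stem cell factor, which was a component of the culture medium. It was measured at 34.2, 39.2 and 33.2 FPKM in pre-HSC, 125.6, 54.9 and 82.5 in cultured ex-HSC, and 104 and 129.96 in fetal liver HSC. Every library of both later populations lay above the highest pre-HSC library. Kit rose 2.47-fold by mean FPKM in ex-HSC (1.20 ± 0.27 SE on the log2 scale, limma adjusted p = 0.00379) and 3.29-fold in fetal liver HSC (1.69 ± 0.30, adjusted p = 0.00106).

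Fetal liver HSC and ex-HSC overlapped for Kit (log2 fold change 0.48, 95% interval -0.18 to 1.14, limma adjusted p = 0.239). Without ex-HSC replicate 1 Kit was called higher in fetal liver HSC, at 0.78 (adjusted p = 0.0434; 0.0434 to 1 over 21 alternatives). Without ex-HSC replicate 2 and with median-of-ratios scaling the sign turned, to -0.01. Kit is also a defining receptor of mast cells. Among the ex-HSC libraries replicate 1 had the highest value of Kit, as of every other member but Ptprc. It also had the highest sum of 12 mast cell and basophil markers. That sum was 7156 FPKM in ex-HSC replicate 1 and 3406 and 3921 in replicates 2 and 3, against 88.1 to 131 in pre-HSC and 501 to 511 in fetal liver HSC. Srgn and Gata2 made up most of it in pre-HSC (72.5 ± 19.3 and 28.5 ± 1.35 FPKM) and in fetal liver HSC (421 ± 0.204 and 71.5 ± 7.03). In ex-HSC these genes stood at 1696 ± 594 and 70.3 ± 33.7. The part of mast cells in the Kit values was not tested.

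The ligand gene Kitl moved the other way. It stood at 20.6, 22.4 and 13.1 FPKM in pre-HSC, between 0.356 and 0.576 in ex-HSC, and at 0.722 and 0.0587 in fetal liver HSC. Kitl fell in ex-HSC (-3.74 ± 0.26 on the log2 scale, limma adjusted p = 8.52e-07) and in fetal liver HSC (-3.84 ± 0.29, adjusted p = 2.65e-06), and did so under all 21 alternatives of each.

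Procr encodes EPCR, which binds protein C and activated protein C at the cell surface and is found on endothelium as well as on stem cells. Its transcript stood at 104, 138 and 120.2 FPKM in pre-HSC, 21.4, 4.24 and 17.9 in cultured ex-HSC, and 43.1 and 64.9 in fetal liver HSC. The 3 groups did not overlap, with pre-HSC highest, fetal liver HSC between and ex-HSC lowest. Procr fell 8.32-fold in ex-HSC (-3.21 ± 0.45 on the log2 scale, limma adjusted p = 0.000173) and passed under all 21 alternatives there, at -2.54 to -3.60.

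Procr in fetal liver HSC against pre-HSC had a log2 fold change of -1.16 ± 0.50 and did not pass (limma adjusted p = 0.0843). Over 21 alternatives its adjusted p ran from 0.00135 to 1, and it passed in 6. It passed without ex-HSC replicate 2 (adjusted p = 0.00268), with median-of-ratios scaling (0.0336) and with quantile normalization (0.0222). Procr was higher in fetal liver HSC than in ex-HSC (2.05 ± 0.50, adjusted p = 0.0109), a call lost without fetal liver HSC replicate 2 (0.0778) and without a filter (0.0608). Over the 21 alternatives of that comparison the adjusted p was 0.00385 to 0.387.

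Thbd and F2r, which act with EPCR, were also highest in pre-HSC. Thbd encodes thrombomodulin, the thrombin receptor with which protein C is activated, and stood at 41.5 ± 1.40 FPKM in pre-HSC, 3.44 ± 1.26 in cultured ex-HSC and 4.42 ± 0.542 in fetal liver HSC. F2r encodes the thrombin receptor PAR1, and stood at 135 ± 18.2, 29.6 ± 7.83 and 26.5 ± 1.36 FPKM. Thbd (log2 fold change -3.30 and -2.98) and F2r (-2.18 and -2.30) fell in ex-HSC and in fetal liver HSC, with a limma adjusted p of 3.17e-05 or less in each case. Neither passed between fetal liver HSC and ex-HSC (limma adjusted p = 0.370 for Thbd and 0.744 for F2r), though F2r was called lower in fetal liver HSC after median-of-ratios scaling. Proc, the gene of protein C itself, had 0.0920 FPKM or less in every library. The sum of 12 endothelial markers was 2881 to 3231 FPKM in pre-HSC, 156 to 313 in cultured ex-HSC and 369.6 to 428 in fetal liver HSC. Egfl7 alone stood at 649 ± 56.8, 182 ± 59.9 and 236 ± 25.9 FPKM in these groups, and was most of the sum in both later ones. The part of endothelial cells in the values of Procr, Thbd, F2r and Kitl was not tested.

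**Figure D4:**
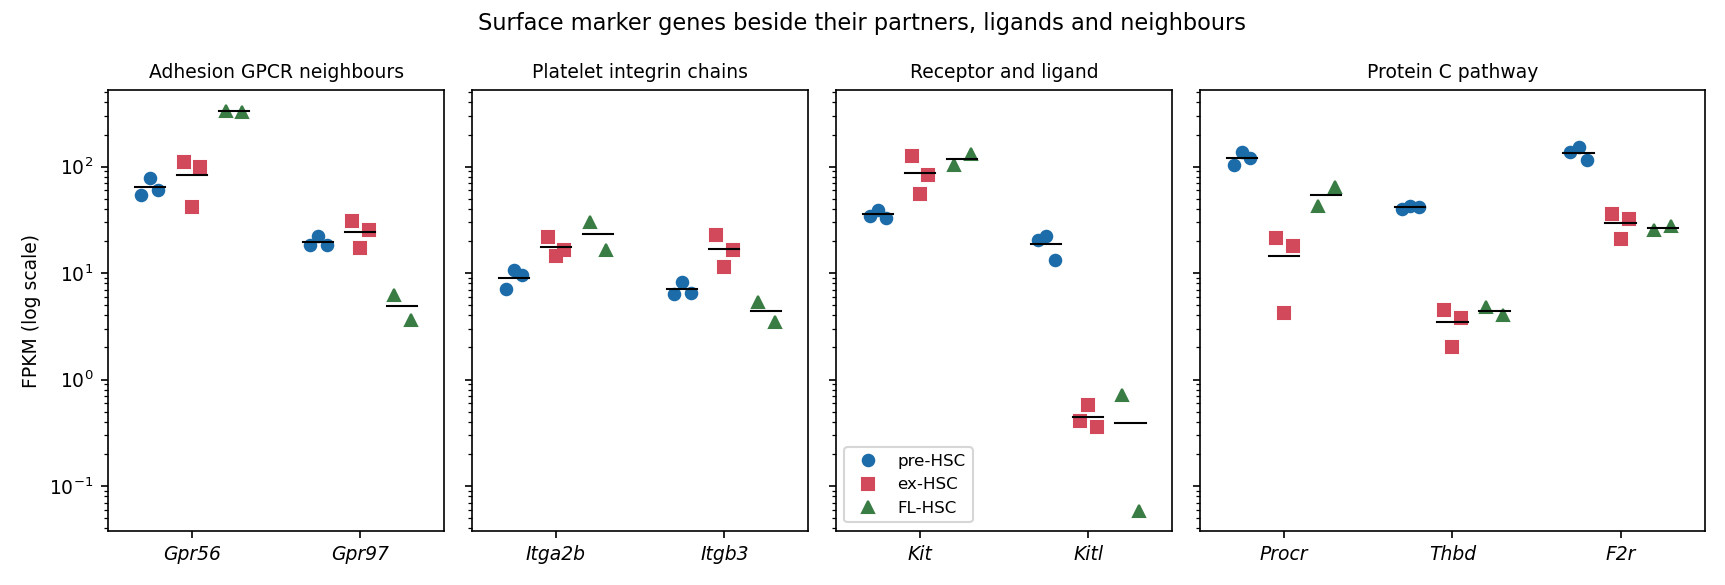
FPKM on a log axis of 4 members beside genes that act with them or lie next to them, with 1 symbol per library (circles pre-HSC, squares ex-HSC, triangles FL-HSC) and the group mean as a line. Itga2b and Itgb3 lie close together in pre-HSC and ex-HSC and apart in FL-HSC, and Gpr56 is at its highest in FL-HSC where Gpr97 is at its lowest.

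Cd27 encodes a receptor of the tumour necrosis factor receptor family found on lymphocytes and on stem and progenitor cells. The level of Cd27 was 4.46, 7.14 and 10.95 FPKM in pre-HSC, 34.8, 20.7 and 30.8 in cultured ex-HSC, and 49.5 and 66.0 in fetal liver HSC. The 3 groups did not overlap and stood in that order. Cd27 rose 3.82-fold in ex-HSC (1.85 ± 0.30 on the log2 scale, limma adjusted p = 0.000481) and 7.68-fold in fetal liver HSC (2.84 ± 0.33, adjusted p = 6.41e-05).

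Cd27 was 2.01-fold higher in fetal liver HSC than in ex-HSC (1.00 ± 0.33 on the log2 scale, limma adjusted p = 0.0406). This call was lost in 10 of 21 alternatives, more than any other call of a member, with adjusted p from 0.0203 to 1. Among these were the fits without ex-HSC replicate 2 (0.122), ex-HSC replicate 3 (0.0603), fetal liver HSC replicate 1 (0.0706) and fetal liver HSC replicate 2 (0.210), and median-of-ratios scaling (0.114). Cd70, the gene of its ligand, was listed at 0 in 6 libraries and at 0.129 and 0.197 FPKM in ex-HSC replicates 2 and 3.

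Spn encodes CD43, a large sialomucin of blood cells. Its level was 9.08, 11.5 and 9.01 FPKM in pre-HSC, 30.6, 18.6 and 24.3 in cultured ex-HSC, and 81.3 and 72.2 in fetal liver HSC. As for Cd27, the 3 groups stood apart without overlap and in the same order. Spn rose 2.49-fold in ex-HSC (1.21 ± 0.21 on the log2 scale, limma adjusted p = 0.000843) and 7.78-fold in fetal liver HSC (2.85 ± 0.24, adjusted p = 5.21e-06). It was 3.13-fold higher in fetal liver HSC than in ex-HSC (1.63 ± 0.24, adjusted p = 0.000637). Each of these calls held with any 1 library left out.

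Spn and Cd27 had the members' highest log2 fold changes in fetal liver HSC. Over the 8 libraries their log2(FPKM + 1) had a Pearson r of 0.93, a description in which group differences weigh most. Such an r was not particular to this pair, since Kit with Cd27 gave 0.935, Kit with Spn 0.910 and Gpr56 with Spn 0.909. The stretches before their starts are shown because these genes moved together and, of the members' promoter windows, theirs overlapped no exon of GENCODE vM21. They are RefSeq sequences of GRCm38.p6, 5′ to 3′ on the gene's minus strand, and no deposited value was placed by these coordinates, since the submitters' notes name mm9. For Spn the stretch is chr7:127137824-127138073 and ends at the base before the start. For Cd27 it is chr6:125237137-125237277 and ends before the outermost RefSeq start, 109 bases short of the start in the promoter table. Capitals mark the letters searched.
Spn: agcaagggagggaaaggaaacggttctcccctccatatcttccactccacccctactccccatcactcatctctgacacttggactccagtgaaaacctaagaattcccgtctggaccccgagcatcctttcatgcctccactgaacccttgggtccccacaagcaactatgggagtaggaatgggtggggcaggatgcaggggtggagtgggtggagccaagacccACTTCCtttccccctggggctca
Cd27: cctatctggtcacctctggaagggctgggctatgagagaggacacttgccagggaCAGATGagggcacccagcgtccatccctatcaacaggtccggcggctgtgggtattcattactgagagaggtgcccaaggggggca

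The letters searched, on both strands of the 250 bases before each start, were TGTGGT, which RUNX factors read, AGATAA, a motif of GATA factors, GGAAGT, a core motif of ETS factors, and the E-box CAGATG. They did not overlap one another in these stretches. Spn held 1 ETS match on the opposite strand, 23 bases before the start, and Cd27 held 1 E-box. Promoters were listed for 8 members (all but Thy1). Of these 8 genes, 3 held the ETS letters (Spn, Itga2b and Ptprc), 2 the E-box (Cd27 and Ptprc), 1 the GATA letters (Ptprc) and 0 the RUNX letters. Of all 32851 promoters listed, 19.7% held the ETS letters, 14.4% the E-box, 9.99% the GATA letters and 14% the RUNX letters. These shares are per promoter, while a member counted if any of its promoters matched. Kit, Ptprc and Gpr56 had 2 promoters each, so the counts and shares are not in the same unit.

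Ptprc encodes CD45, the receptor phosphatase present on nearly all blood cells but red cells and platelets. The table gives 1 value per gene, so the isoforms by which CD45 antibodies differ were not resolved. The level of Ptprc was 9.75, 7.97 and 13.2 FPKM in pre-HSC, 43.3, 30.1 and 44.3 in cultured ex-HSC, and 13.9 and 28.8 in fetal liver HSC. Ex-HSC was highest, and the lower fetal liver HSC library lay just above the highest pre-HSC one. Ptprc rose 3.80-fold in ex-HSC (1.83 ± 0.29 on the log2 scale, limma adjusted p = 0.000392).

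Ptprc rose 2.07-fold in fetal liver HSC (0.92 ± 0.32 on the log2 scale, limma adjusted p = 0.0388), and this call rested on single libraries. It was lost without pre-HSC replicate 1 (0.0903), pre-HSC replicate 2 (0.110), ex-HSC replicate 1 (0.0519) or fetal liver HSC replicate 2 (0.357). It was also lost with median-of-ratios scaling (0.0526), and over 21 alternatives the adjusted p was 0.0102 to 1. The log2 fold change between fetal liver HSC and ex-HSC was -0.91 ± 0.32 (limma adjusted p = 0.0508). That comparison passed in 9 of 21 alternatives (0.00851 to 1), among them the fits without pre-HSC replicate 3 (0.0481), ex-HSC replicate 2 (0.0471) or fetal liver HSC replicate 2 (0.0174).

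The ratio of Ptprc to Procr within a library, which scaling between libraries does not touch, set the populations apart. It was 0.0938, 0.0579 and 0.110 in pre-HSC, 2.03, 7.10 and 2.48 in cultured ex-HSC, and 0.323 and 0.444 in fetal liver HSC. Procr exceeded Ptprc in every pre-HSC and fetal liver HSC library, and Ptprc exceeded Procr in every ex-HSC library.

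Cd34 encodes a sialomucin of endothelium and blood progenitors. Libraries held Cd34 at 246, 295 and 296 FPKM in pre-HSC, 293, 179.7 and 286 in cultured ex-HSC, and 125 and 116 in fetal liver HSC. Fetal liver HSC was the low group, below every other library. Cd34 fell in fetal liver HSC 2.32-fold against pre-HSC (-1.20 ± 0.23 on the log2 scale, limma adjusted p = 0.00199) and was 2.10-fold lower than in ex-HSC (-1.03 ± 0.23, adjusted p = 0.00742).

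In ex-HSC against pre-HSC, Cd34 gave a log2 fold change of -0.17 (95% interval -0.63 to 0.29, limma adjusted p = 0.541). Without ex-HSC replicate 2 the value was 0.06, and with array weights 0.08, both of the opposite sign. With quantile normalization Cd34 was called lower, at -0.31 (adjusted p = 0.0260; 0.0260 to 1 over 21 alternatives). Its related sialomucin gene Podxl, of podocalyxin, went from 69.0 ± 3.77 FPKM in pre-HSC to 6.08 ± 3.36 in ex-HSC and 28.2 ± 1.72 in fetal liver HSC, and fell in both (log2 fold change -3.44 ± 0.34 and -1.26 ± 0.38, adjusted p = 1.11e-05 and 0.0199).

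The ratio of Cd34 to Kit did not overlap between groups either. It was 7.19, 7.54 and 8.91 in pre-HSC, 2.33, 3.27 and 3.47 in cultured ex-HSC, and 1.20 and 0.892 in fetal liver HSC.

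Itga2b encodes CD41, the alpha chain of the platelet fibrinogen receptor and one of the first blood markers in the embryo. It was measured at 7.12, 10.6 and 9.56 FPKM in pre-HSC, 22.0, 14.5 and 16.3 in cultured ex-HSC, and 30.1 and 16.5 in fetal liver HSC. Both later groups lay above pre-HSC and overlapped each other. Itga2b rose 1.94-fold in ex-HSC (0.88 ± 0.26 on the log2 scale, limma adjusted p = 0.0186) and 2.56-fold in fetal liver HSC (1.22 ± 0.29, adjusted p = 0.00645).

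Single libraries carried these calls in part. In ex-HSC the call was lost without pre-HSC replicate 1 (adjusted p = 0.0873) or ex-HSC replicate 1 (0.0712), with a range of 0.00233 to 1 over 21 alternatives by limma. The fetal liver call was lost without fetal liver HSC replicate 1 (0.0834; 0.00343 to 1). Itga2b gave 0.34 between fetal liver HSC and ex-HSC (95% interval -0.30 to 0.99, adjusted p = 0.399), and the sign turned to -0.07 without fetal liver HSC replicate 1 and to -0.02 with quantile normalization.

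Itgb3, the beta chain that pairs with CD41, parted from Itga2b in fetal liver HSC. The level of Itgb3 was 6.39, 8.24 and 6.46 FPKM in pre-HSC, 22.8, 11.5 and 16.5 in cultured ex-HSC, and 5.36 and 3.46 in fetal liver HSC. Itgb3 rose in ex-HSC (1.12 ± 0.26 on the log2 scale, limma adjusted p = 0.00532) and was lower in fetal liver HSC than in ex-HSC (-1.70 ± 0.29, adjusted p = 0.00171). In fetal liver HSC against pre-HSC it did not pass (-0.58, 95% interval -1.23 to 0.06, adjusted p = 0.131). Itgb3 was called lower there in 2 of 21 alternatives, both with median-of-ratios scaling, on all libraries and with ex-HSC replicate 2 left out. Leaving out ex-HSC replicate 2 without that scaling did not give the call. The ratio of Itga2b to Itgb3 was 1.11, 1.28 and 1.48 in pre-HSC, 0.965, 1.26 and 0.990 in cultured ex-HSC, and 5.61 and 4.76 in fetal liver HSC. The fetal liver HSC ratios lay above all 6 others, which differed little among themselves.

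Itga2b is also a defining gene of megakaryocytes. Of 11 megakaryocyte markers other than Itga2b, 9 reached a mean of 1 FPKM in pre-HSC and 10 in each later population. Their sum was 282 to 478 FPKM in pre-HSC, 138 to 180.1 in cultured ex-HSC and 169 to 276 in fetal liver HSC. Vwf alone stood at 174 ± 19.5, 5.60 ± 1.12 and 13.5 ± 2.06 FPKM in these groups. Of the 11 tested genes of this list, Itga2b included, 2 rose and 1 fell in ex-HSC, beside 15.7% and 28.4% of all tested genes. In fetal liver HSC against pre-HSC 5 rose and 2 fell, beside 22.9% and 20.4%. The collagen receptor gene Gp6 was listed at 0 in fetal liver HSC. The part of megakaryocytes in the Itga2b values was not tested.

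Thy1 encodes a small glycolipid-anchored protein of T cells, neurons, fibroblasts and stem cells. Its low level was 1.54, 2.17 and 1.40 FPKM in pre-HSC, 5.11, 2.75 and 3.98 in cultured ex-HSC, and 3.83 and 2.59 in fetal liver HSC. Levels were low throughout, and every later library lay above the highest pre-HSC one. Thy1 rose 2.31-fold by mean FPKM in ex-HSC (0.85 ± 0.24 on the log2 scale, limma adjusted p = 0.0147). The call was lost without pre-HSC replicate 1 (0.0544) or ex-HSC replicate 1 (0.0558), and the range over 20 alternatives was 0.000743 to 1.

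Thy1 gave 0.63 ± 0.27 in fetal liver HSC and did not pass (limma adjusted p = 0.0803). It passed without ex-HSC replicate 2 (0.0498) and with quantile normalization (0.0103), the lower end of a range that reached 1. The difference between fetal liver HSC and ex-HSC was -0.22 (95% interval -0.82 to 0.38, adjusted p = 0.570). Of 11 stromal markers other than Thy1, 11 reached a mean of 1 FPKM in pre-HSC, 8 in cultured ex-HSC and 3 in fetal liver HSC. Their sum was 362 to 686 FPKM in pre-HSC, 14.2 to 30.2 in cultured ex-HSC and 8.28 to 13.7 in fetal liver HSC. Of 11 T and B cell markers other than Thy1, 2 reached 1 FPKM in pre-HSC and 3 in each later group, with sums of 28.9 to 40.9 FPKM over all libraries. Much of that sum was the kinase gene Lck, at 26.4 ± 4.84 FPKM in pre-HSC, 20.4 ± 1.91 in cultured ex-HSC and 11.7 ± 1.96 in fetal liver HSC. Among them Cd3d and Cd8a were at 0 in every pre-HSC and fetal liver HSC library. Cd3g, a chain of the T cell receptor complex, rose in ex-HSC together with Thy1. Cd3g went from 0.306 ± 0.324 to 2.79 ± 0.577 FPKM (1.56 ± 0.23 on the log2 scale, limma adjusted p = 0.000229), and stood at 0 and 0.0820 FPKM in fetal liver HSC. Of the 5 tested genes of this list, Thy1 included, these 2 rose in ex-HSC, and 3 (Cd4, Cd79b and Lck) did not pass. Cd3e, Cd3d and Cd8a had means of 0.135, 0.289 and 0.0262 FPKM in cultured ex-HSC. The parts of stromal and lymphoid cells in the Thy1 values were not tested.

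Gpr56, now named Adgrg1, encodes an adhesion G protein-coupled receptor of blood stem cells and neural progenitors. Gpr56 transcripts stood at 53.5, 77.4 and 60.3 FPKM in pre-HSC, 111, 41.4 and 98.6 in cultured ex-HSC, and 336 and 326 in fetal liver HSC. Pre-HSC and ex-HSC overlapped, and fetal liver HSC lay far above both. Gpr56 rose 5.19-fold in fetal liver HSC against pre-HSC (2.37 ± 0.36 on the log2 scale, limma adjusted p = 0.000403) and was 3.95-fold higher than in ex-HSC (2.09 ± 0.36, adjusted p = 0.00175).

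In ex-HSC against pre-HSC Gpr56 gave 0.29 (95% interval -0.43 to 1.00, limma adjusted p = 0.502). That answer rested on ex-HSC replicate 2, without which Gpr56 was called higher at 0.73 (adjusted p = 0.00895; 0.00895 to 1 over 21 alternatives). With array weights it was called at 0.70 (0.0124).

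Gpr97 (now Adgrg3), the gene of a related receptor, lies next to Gpr56 on chromosome 8 by RefSeq, with no coding gene between them. It had 18.3, 22.4 and 18.4 FPKM in pre-HSC, 30.8, 17.1 and 25.5 in cultured ex-HSC, and 6.20 and 3.62 in fetal liver HSC. Gpr97 fell in fetal liver HSC against pre-HSC (-1.84 ± 0.28 on the log2 scale, limma adjusted p = 0.000451) and was lower there than in ex-HSC (-2.11 ± 0.28, adjusted p = 0.000407), where Gpr56 was higher in both. The call against ex-HSC held in 21 of 21 alternatives, and the call against pre-HSC in 20, missing with a minimum absolute log2 fold change of 1. Gpr97 did not pass in ex-HSC against pre-HSC (0.27 ± 0.25, limma adjusted p = 0.419), and was called higher in 1 of 21 alternatives, with array weights.

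The genes most like each member were sought by Pearson r of log2(FPKM + 1) over the 8 libraries, among 4289 genes whose group means differed by at least 1 on that scale and reached 5 FPKM. With 3 groups, such an r follows the group means first. Among the nearest to Gpr56 were the transcription factor gene Myc (r = 0.992) and Mettl3, an RNA methyltransferase gene (0.990). Myc stood at 29.6, 32.2 and 132.6 FPKM by group mean in pre-HSC, ex-HSC and fetal liver HSC. For Spn the 3 nearest were Pdxp, Prdm11 and Abcb4 (0.998, 0.993 and 0.993), and for Cd27 Adssl1, Tmem42 and Nelfe (0.989, 0.985 and 0.983).

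For Kit the nearest were Dedd2, Orai2 and Nt5c3 (r = 0.988, 0.980 and 0.980), and for Ptprc the antiviral gene Zc3hav1, Samd9l and the phosphatase gene Ptpn22 (0.980, 0.978 and 0.973). For Cd34 they were Btg1, Ppp1r15a and Nedd9 (0.977, 0.975 and 0.973). Btg1, a gene that restrains proliferation, had means of 52.1, 40.7 and 5.46 FPKM, so it shared the low fetal liver HSC level with a wider span. For Procr they were Pnpla6, Cdk16 and Fam193b (0.997, 0.991 and 0.991). For Itga2b they were the lactate dehydrogenase gene Ldha, Syce2 and Adk (0.975, 0.969 and 0.967), and for Thy1 Ank, Ada and Rad51b (0.971, 0.967 and 0.963).

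Other surface genes by which precursors and stem cells are sorted moved both ways. Of 32 such genes, 9 rose and 15 fell in ex-HSC against pre-HSC (all tested genes 15.7% and 28.4%), with a median log2 fold change of -0.52. The vascular receptor and junction genes Cdh5, Kdr and Tek had the largest called changes there (-6.52, -6.49 and -5.41). In fetal liver HSC against pre-HSC 10 rose and 16 fell (median -1.16, all tested genes 22.9% and 20.4%), led by Kdr, Mcam and Cdh5 (-6.25, -5.84 and -5.77). Between fetal liver HSC and ex-HSC 10 were higher and 10 lower in fetal liver HSC (median 0.20, all tested genes 24.1% and 9.15%). Of these, Ly6a and Fcgr3 were lower (-4.09 and -3.38) and Slamf1 higher (3.26). Slamf1, a marker of stem cells in the adult and the fetal liver, stood at 0.652 ± 0.300 FPKM in pre-HSC, 0.713 ± 0.593 in cultured ex-HSC and 14.9 ± 2.69 in fetal liver HSC. Cdh5, Kdr and Tek also belong to the endothelial marker list, so their fall is part of that list's fall and not a second observation.

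Of 33 ligands, partners and relatives of the members, 29 were tested. The shares of all tested genes are those given for the 32 surface genes. In ex-HSC 7 rose and 15 fell (median -0.58), with Fn1, Vwf and Col3a1 first (-4.97, -4.74 and -4.20). In fetal liver HSC 5 rose and 14 fell (median -0.75), with Col3a1, Fn1 and Kitl first (-6.24, -4.52 and -3.84). The matrix genes Fn1 and Col3a1 encode fibronectin and collagen III, the latter a ligand of GPR56. Between fetal liver HSC and ex-HSC 8 were higher and 7 lower (median 0.24), with Podxl (2.18) and Gpr97 (-2.11) among the largest changes.

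Of 26 genes of KIT signalling and the kinases that CD45 acts on, 25 were tested, and the same shares of all tested genes apply. In ex-HSC 8 rose and 4 fell (median 0.07), and the first were the lipid kinase gene Pik3cd (2.03), the Src family kinase gene Fgr (1.81) and the feedback inhibitor Socs1 (1.67). In fetal liver HSC 8 rose and 2 fell (median -0.03). There Stat5a, a signal transducer below cytokine receptors, went from 8.18 ± 1.13 FPKM to 48.3 and 51.1 (2.47 ± 0.29, limma adjusted p = 5.78e-05), followed by Pik3cd (2.25) and Stat5b (1.74). Between fetal liver HSC and ex-HSC 8 were higher and 4 lower (median 0.25), led by Stat5a (2.10), Socs1 (-1.88) and Fgr (-1.84).

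Markers of other cells gave the following levels beside the members. Of 12 endothelial markers, 12 reached a mean of 1 FPKM in pre-HSC, 10 in cultured ex-HSC and 11 in fetal liver HSC. Of 12 mast cell and basophil markers these counts were 4, 12 and 6, with Mcpt4, Tpsb2, Tpsab1, Fcer1a, Mcpt8 and Prss34 at 0 in pre-HSC. Of 12 neutrophil markers they were 5, 11 and 11, with sums of 39.6 to 58.8 FPKM in pre-HSC, 694 to 1007 in cultured ex-HSC and 534 to 641 in fetal liver HSC. Of 11 macrophage markers they were 9, 7 and 9, with sums of 238 to 1351, 135 to 203 and 48.0 to 348. Of 10 erythroid markers they were 7, 9 and 9, with sums of 698 to 949, 172 to 186 and 207 to 321. Most of the pre-HSC erythroid sum was the globin gene Hbb-y, at 588 ± 81.8, 11.2 ± 1.99 and 25.9 ± 28.5 FPKM by group. Of these 10 genes 3 rose and 2 fell in ex-HSC, beside 15.7% and 28.4% of all tested genes. In fetal liver HSC against pre-HSC 5 rose and 2 fell, beside 22.9% and 20.4%. Of 11 hepatocyte markers the counts were 4, 2 and 7, with sums of 31.5 to 100.3, 20.1 to 27.4 and 18.2 to 69.8. Much of each hepatocyte sum was Trf, at 40.9 ± 23.5, 20.0 ± 3.79 and 17.5 ± 12.9 FPKM by group. The parts of these cells in the members' values were not tested.

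**Figure D5:**
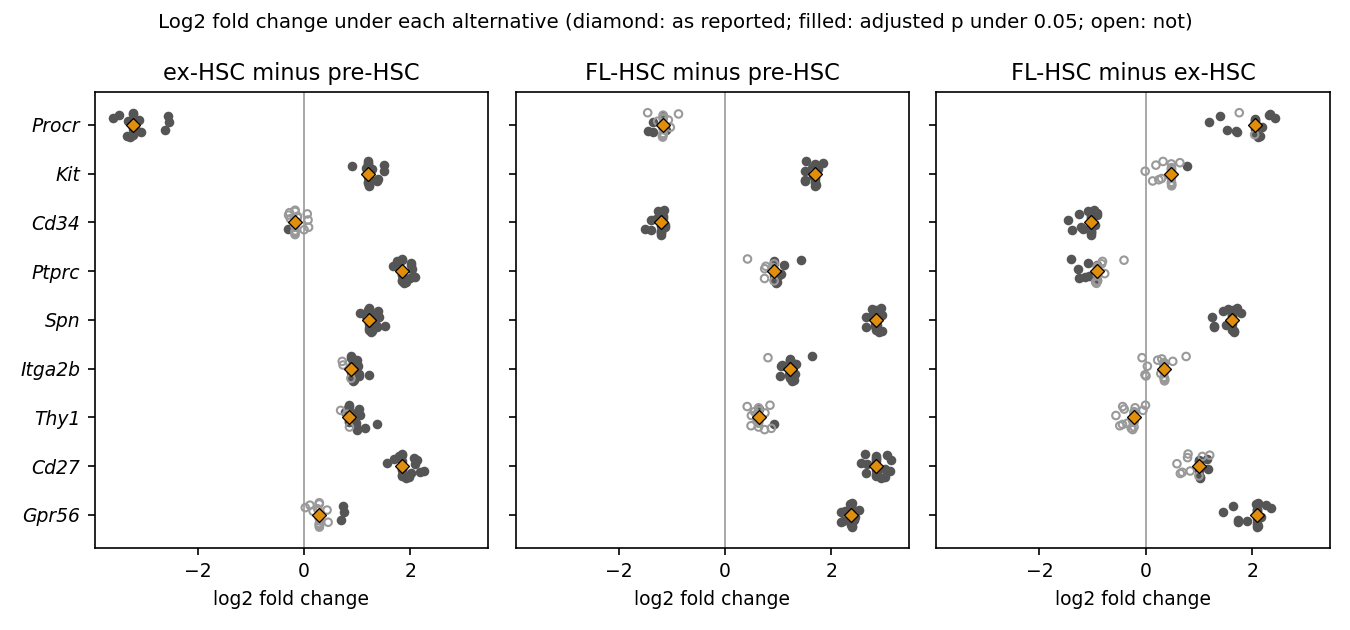
Log2 fold change of each gene in the 3 comparisons under every alternative processing (small circles, filled where the limma adjusted p was under 0.05 and open where it was not), with the reported value as a diamond. The refit that asked for a minimum change kept the reported value and lies under the diamond. Spn and Cd27 stay to the right of 2.5 in FL-HSC against pre-HSC, while Cd34 and Gpr56 in ex-HSC against pre-HSC lie near 0 or move with single settings.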

How the data were processed

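The authors deposited 1 table of FPKM per gene for 8 libraries of poly(A)-selected RNA. The submitters' processing notes name Cufflinks, featureCounts, edgeR, DESeq and the build mm9, without versions or roles. Of 33531 rows, 27 carried dates in place of symbols and were left out. Low values were compared between libraries, and at most 2.48% of them sat at one ratio, so whole reads were not recovered. Sequencing depth is thus unknown, and count models were not used.

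Values were taken as log2(FPKM + 1), which understates the change of low genes. The 13720 genes that reached 1 FPKM in 2 or more libraries were fitted in limma 3.58.1 (R 4.3.3), with 1 mean per group and an intensity trend. Errors of group means are SD and those of log2 fold changes SE. Folds without an error are ratios of mean FPKM. The fit was tested on simulated data. Since no label separates replicates by litter or culture, p-values measure the spread between libraries. The members and the gene lists, markers and motifs were chosen with earlier results of these data known. Named beside the members were their ligands, partners and relatives, the 3 genes nearest each by Pearson r, and up to 3 called genes with the largest change per pathway list. Alternatives were other pseudocounts, filters, scalings, weights, fits and a replicate block, and each library left out. Some genes that this rule names are not reported here.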

Additional observations from a re-analysis of the deposited data

How the results depend on the processing

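Of 564 refits of a member in a comparison, 495 kept the direction and the side of the threshold, 41 lost a call, 22 gained one and 6 turned sign. For Cd34 in ex-HSC against pre-HSC the values of turned sign were 0.083 with array weights, and 0.074 without ex-HSC replicate 2 and with median-of-ratios scaling. With 1 library left out in turn it ran from -0.29 to 0.059 (without ex-HSC replicate 2). Between FL-HSC and ex-HSC, Kit was at -0.011 without ex-HSC replicate 2 and with median-of-ratios scaling. Itga2b was there at -0.016 with quantile normalization, and at -0.070 to 0.76 with 1 library left out (lowest without FL-HSC replicate 1). The cause was not tested.

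When a change of more than 1 on the log2 scale was asked for, 1776, 1417 and 578 genes were called in the 3 comparisons, against 6050, 5947 and 4564. The members that rose were then 0, 3 (Spn, Cd27 and Gpr56) and 0, and those that fell 0 in both comparisons with FL-HSC. That test asks for a larger change by construction. For members that fell, 2 instead of 1 were found in ex-HSC against pre-HSC with quantile normalization. In FL-HSC against pre-HSC 2 fell with quantile normalization, with median-of-ratios scaling, with only the groups compared, with array weights, and without ex-HSC replicate 2 with median-of-ratios scaling. Between FL-HSC and ex-HSC 2 were lower with array weights, a filter of 5 FPKM, quantile normalization, median-of-ratios scaling, isolated zeros as missing values, and without ex-HSC replicate 2 with median-of-ratios scaling, while 2 were higher with no filter.

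With 1 library left out in turn, genes called ran from 4712 to 6574, 4210 to 7178 and 2836 to 4421 (lowest without FL-HSC replicate 2, and 2972 when FL-HSC replicate 1 was left out), members that rose from 4 to 7, 5 to 7 and 2 to 5, and members that fell from 1 to 1, 1 to 2 and 1 to 2. Where 1 FL-HSC library was left, it was assumed to vary like the other groups. Deviations from group means had r of -0.11 to 0.14 between same-numbered libraries, and not every library went best with its own number. In groups this small the deviations within a group depend on each other. Those of the 2 FL-HSC libraries are mirror images, at -0.114 and 0.114 with pre-HSC replicate 1. Whether replicate numbers pair the libraries therefore could not be decided from these values. The replicate block gave 6146, 5891 and 4328 called genes and changed no member's call. Thy1 did not pass a filter of 5 FPKM and so had 20 alternatives. Since depth is unknown, the counting error of Thy1 and other low genes could not be given.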
